A study of Homo sapiens with 4 samples.

Results

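Bone morphogenetic proteins (BMPs) and transforming growth factor beta (TGF-beta) act on cells through SMAD proteins, and 9 genes whose transcription is a common readout of these pathways were followed here by symbol: ID1, ID2, ID3, ID4, SMAD6, SMAD7, PMEPA1, SKIL and BAMBI. They are 9 of the 20363 genes in the count table, and 9 of 9 passed the filter on low counts that 14970 genes passed (at least 10 reads in at least 2 libraries). The study sequenced RNA of DAOY, an established human cell line from a cerebellar medulloblastoma, to ask how the zinc finger transcription factor ZNF521 and the Sonic hedgehog pathway act together. There was 1 library per condition: ZNF521-overexpressing cells with SAG, an agonist of the hedgehog receptor component SMO (ZNF521_SAG), the same cells with the solvent dimethyl sulfoxide (ZNF521_DMSO), control cells with SAG (CTL_SAG) and control cells with solvent (CTL_DMSO). ZNF521 was carried by a lentiviral vector together with EGFP, and transduced cells were sorted for EGFP. The design description of the series calls the controls wild-type cells, whereas the study's methods describe an empty-vector control. A difference between ZNF521 and control cells may thus include the transduction itself. The dose of SAG given to the sequenced cells was not named.

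BMP receptors phosphorylate SMAD1, SMAD5 and SMAD8, and TGF-beta and activin receptors phosphorylate SMAD2 and SMAD3. Both groups enter the nucleus with SMAD4 and switch on, among other genes, their own inhibitors. In cerebellar granule neuron progenitors, the cells from which hedgehog-driven medulloblastoma arises, BMP signalling is known to oppose the proliferation that Sonic hedgehog drives. ID proteins are helix-loop-helix factors without a DNA-binding region, which hold back differentiation by sequestering bHLH factors, and their genes are classical BMP targets.

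Libraries held 12294833 to 16314685 counted reads, and values are given as the authors' normalized counts, in which each library's counts were divided by a single size factor. With 1 library per condition, intervals on a ratio of 2 libraries cover counting error only. ZNF521 itself had normalized counts of 2072 and 2013 in the ZNF521_SAG and ZNF521_DMSO libraries, against 751 and 714 in CTL_SAG and CTL_DMSO. GLI1, the hedgehog target, had 318 in ZNF521_SAG against 44.2 in ZNF521_DMSO and 324 in CTL_SAG against 75.4 in CTL_DMSO. ZNF521 thus followed the label of the cells and GLI1 the label of the treatment. In neither treatment was GLI1 higher with ZNF521, whereas the study reported by RT-qPCR that ZNF521 raised it in DAOY cells. The study used human and mouse constructs of ZNF521, and which of them these cells carried was not named. Reads of a mouse transgene would reach the human gene's count only in part. The CTL_DMSO library stood apart from the rest: its log2 deviations from the 4-library mean had an SD of 0.273 over 9161 well-counted genes, against 0.126 to 0.142 in the other libraries. Of the 7 marker genes of granule neuron progenitors, ATOH1, BARHL1 and NEUROD1 were under 10 normalized counts in each library, while ZIC1, ZIC2, PAX6 and MEIS1 were between 176 and 1081. The 5 mesenchymal markers, which include FN1 and COL1A1, summed to 72919, 73501 and 76957 in ZNF521_SAG, ZNF521_DMSO and CTL_SAG and to 123942 in CTL_DMSO. Of the 5, COL1A1, COL1A2 and FN1 were highest in CTL_DMSO, VIM in CTL_SAG and THY1 in ZNF521_DMSO. The 4 endothelial markers summed to between 68.3 and 89.1, with KDR under 10 in each library.

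The promoters of the 3 genes that passed an unadjusted threshold in the comparisons described further on, SMAD6, PMEPA1 and SKIL, are shown because SMAD complexes are known to bind short elements near the starts of such genes. Each window is the 250 bases before a RefSeq start site (GRCh38.p14), read along the gene, with a matched element in capitals. These start sites differ in part from the GENCODE gene spans given further on. The SKIL window lies inside the span of its gene, and the PMEPA1 window shown overlaps that of its gene.
SMAD6 (chr15:66701986-66702235, plus strand): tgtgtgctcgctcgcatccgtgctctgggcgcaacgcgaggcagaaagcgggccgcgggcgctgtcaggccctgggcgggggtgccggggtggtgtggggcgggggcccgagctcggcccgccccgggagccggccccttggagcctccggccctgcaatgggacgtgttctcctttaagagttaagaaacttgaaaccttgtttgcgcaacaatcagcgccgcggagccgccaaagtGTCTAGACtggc
PMEPA1 (chr20:57711473-57711722, minus strand): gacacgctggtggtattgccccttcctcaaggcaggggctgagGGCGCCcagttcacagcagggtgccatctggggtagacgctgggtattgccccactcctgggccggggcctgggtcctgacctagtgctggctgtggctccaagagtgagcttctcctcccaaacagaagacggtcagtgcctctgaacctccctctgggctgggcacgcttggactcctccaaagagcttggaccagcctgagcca
SKIL (chr3:170357465-170357714, plus strand): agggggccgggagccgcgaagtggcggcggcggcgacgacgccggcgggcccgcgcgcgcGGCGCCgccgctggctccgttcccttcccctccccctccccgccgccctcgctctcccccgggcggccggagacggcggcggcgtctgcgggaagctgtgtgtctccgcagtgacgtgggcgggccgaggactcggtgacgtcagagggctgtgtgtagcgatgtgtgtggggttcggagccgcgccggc
The elements searched on both strands were GTCTAGAC, a palindrome of the SMAD-binding half-site, GGCGCC, to which BMP-activated SMADs bind, and GACCACCCA, the site of GLI factors. The first 2 read the same on both strands, and no letters were shared between matches. Of 35116 promoter windows of this length, 64 (0.182%) held GTCTAGAC, and SMAD6 was the single one of the 9 genes with a match, starting at position -12 (counted back from -1, the base before the start). GGCGCC was far more frequent, in 16.4% of all windows, and was found before SKIL at -190, before PMEPA1 at -207 in 1 of its 4 RefSeq windows, and before BAMBI at -209, -196 and -181. GACCACCCA was in 0.199% of windows and in 0 of the 14 windows of the 9 genes. A match is a description of these letters and not a site of binding.

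Divided by the length of the merged exons, so that levels could be compared between genes, the 9 genes ranged over more than an order of magnitude. ID3 averaged 3188 normalized counts per kb and ID1 1936, followed by BAMBI (518) and ID2 (200.1). SKIL (134), SMAD7 (117), ID4 (109), PMEPA1 (91.5) and SMAD6 (78.7) followed, and within these 5 the range over the 4 libraries of each gene overlapped that of its neighbour in the order, so their order is not resolved. In counts per library, not per kb, ID3 lay at the 97.2 percentile of the 14970 tested genes and ID4, the lowest of the 9, at the 55.2 percentile. The fold range between the highest and the lowest library was widest for PMEPA1 (1.80-fold) and SMAD6 (1.79-fold), at the 94.6 and 94.4 percentiles of 9161 genes that averaged at least 200 normalized counts, whose median range was 1.26-fold. It was narrowest for ID2 (1.15-fold) and ID1 (1.18-fold), at the 22.1 and 29.4 percentiles.

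**Figure D1:**
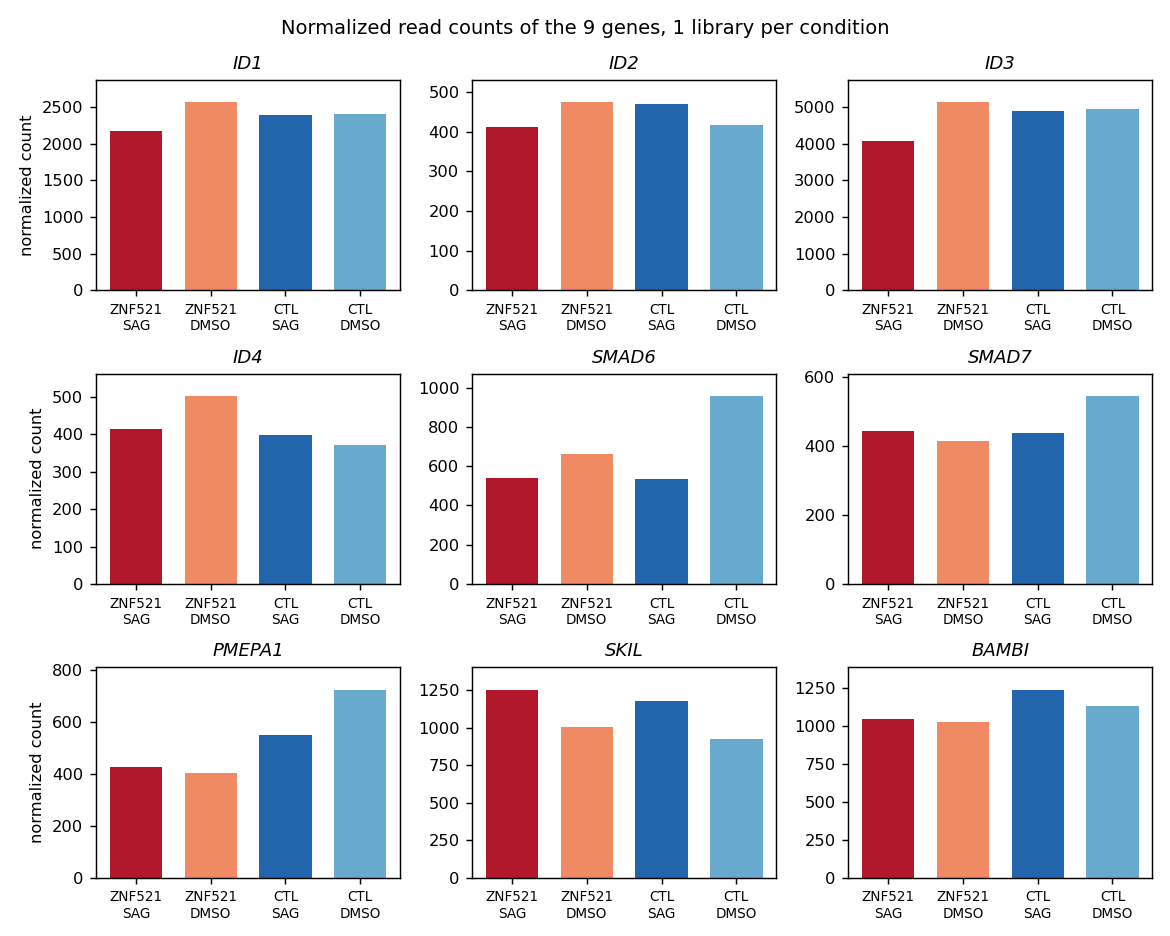
Normalized read counts (vertical axes, starting at 0) of the 9 genes, each bar being the single library of a condition, without error bars. ID1 to ID4 were highest in ZNF521_DMSO, and SMAD6, SMAD7 and PMEPA1 in CTL_DMSO (957, 546 and 722 normalized counts).

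The effects of ZNF521 and of SAG were each estimated over the 4 libraries with an additive edgeR quasi-likelihood model that had 1 residual degree of freedom. None of the 9 genes passed an adjusted p of 0.05 in the ZNF521 comparison (0.00668% of the 14970 genes did, a single gene, with edgeR) or in the SAG comparison (0.0401%, 6 genes, with edgeR). DESeq2 and limma also called 0 of the 9 genes. With the unadjusted p read at 0.05, the threshold used in the study, 1 of the 9 was called for ZNF521, where 5.48% of all tested genes were called, and 2 of the 9 were called for SAG, where 11.3% were called. For ZNF521 the called gene was PMEPA1, which was lower (3.11% of all tested genes), and 0 of the 9 were called higher (2.36%). For SAG, SMAD6 was lower (5.12%) and SKIL higher (6.21%). At that unadjusted threshold DESeq2 called 1 of the 9 for ZNF521 (167 of the 14970 tested genes) and 1 for SAG (424 of 14970), and limma called 1 (814 of 14970) and 2 (1717 of 14970). The median log2 fold change of the 9 genes was -0.12 for ZNF521 and -0.11 for SAG, beside -0.0034 and 0.00055 over all tested genes. Both ZNF521 libraries lay on the same side of both control libraries in 3 of the 9 genes (ID4, PMEPA1 and BAMBI), beside 26.4% of all tested genes, and both SAG libraries lay on the same side of both solvent libraries in 4 of the 9 (ID1, ID3, SMAD6 and SKIL), beside 48.1%.

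The ID genes differed between the 4 conditions by 1.15-fold (ID2), 1.18-fold (ID1), 1.26-fold (ID3) and 1.35-fold (ID4). None of them passed the test in either comparison over the 4 libraries. They lie apart in the genome (hg38, GENCODE annotation): ID1 at chr20:31605283-31606515 and ID2 at chr2:8678845-8684461 on the plus strand, ID3 at chr1:23557926-23559501 on the minus strand and ID4 at chr6:19837370-19842197 on the plus strand. ID1 had 2179 normalized counts in ZNF521_SAG, 2567 in ZNF521_DMSO, 2389.6 in CTL_SAG and 2410.4 in CTL_DMSO. ID3 had 4088, 5136, 4901 and 4955 in the same order of libraries. In both genes ZNF521_SAG was the lowest library and ZNF521_DMSO the highest, and the control libraries lay close to each other between them. ID2 had 412 in ZNF521_SAG, 474 in ZNF521_DMSO, 469 in CTL_SAG and 416 in CTL_DMSO, so that the groups overlapped in either comparison. ID4 had 414 in ZNF521_SAG and 502 in ZNF521_DMSO, against 399 in CTL_SAG and 372 in CTL_DMSO, with the ZNF521 libraries above the control libraries. This made ID4 the single one of the 9 genes whose ZNF521 libraries were both above the controls, as were those of 13.3% of all tested genes. Its ZNF521 log2 fold change was 0.23 (SE 0.17, edgeR adjusted p = 0.967). Those of ID1, ID2 and ID3 lay between -0.12 and -0.011 (SE 0.15 to 0.17, edgeR adjusted p from 0.988 to 0.997).

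All 4 ID genes were highest in ZNF521_DMSO, which was the highest library of 20.9% of all tested genes. Within ZNF521 cells each was lower with SAG than with solvent by an interval that excluded 1, at 0.849 times for ID1 (95% interval 0.803 to 0.897), 0.868 for ID2 (0.763 to 0.988), 0.796 for ID3 (0.765 to 0.828) and 0.825 for ID4 (0.726 to 0.937). Within control cells the ratio of SAG to solvent was 0.991 for ID1 (0.935 to 1.051), 1.127 for ID2 (0.982 to 1.295), 0.989 for ID3 (0.949 to 1.031) and 1.073 for ID4 (0.925 to 1.245), each interval including 1. These intervals cover counting error only. The share of all tested genes whose interval excluded 1 was not counted in either pair, so these ratios have no background of that kind. Over ZNF521 and control cells together the SAG log2 fold changes of the ID genes were between -0.17 and -0.017 (SE 0.15 to 0.17, edgeR adjusted p from 0.686 to 0.973). Without CTL_DMSO, which leaves 1 solvent library, they were -0.18 for ID1, -0.12 for ID2, -0.20 for ID3 and -0.31 for ID4. ID1 and ID3 had both SAG libraries below both solvent libraries, as did 22.7% of all tested genes. ID2-AS1, which overlaps ID2 on the opposite strand, had 7 to 12 reads per library, and whether the counting used strand is not given in the sources used here.

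SMAD6 and SMAD7 encode the inhibitory SMADs, which block receptors and SMAD4; SMAD6 (chr15:66702236-66782849, plus strand) acts mainly on BMP and SMAD7 (chr18:48919853-48950965, minus strand) on both pathways. SMAD6 had 538 normalized counts in ZNF521_SAG against 664 in ZNF521_DMSO, and 536 in CTL_SAG against 957 in CTL_DMSO. Both SAG libraries were thus below both solvent libraries, and CTL_DMSO lay far above the rest. SMAD6 was lower with SAG by a log2 fold change of -0.57 (SE 0.17, edgeR unadjusted p = 0.0058, adjusted p = 0.391). The ratio of SAG to solvent was 0.811 (95% interval 0.726 to 0.906) in ZNF521 cells and 0.560 (0.50 to 0.626) in control cells. SMAD6 was the single one of the 9 genes at least 1.5-fold apart in the control pair, beside 19.2% of all tested genes, and 0 of the 9 were so in the ZNF521 pair, beside 6.31%. Fitted without the CTL_DMSO library it was still lower, by a log2 fold change of -0.31 (edgeR unadjusted p = 0.0083), whereas without ZNF521_SAG the fold change was of like size (-0.60) but did not pass (edgeR unadjusted p = 0.056). For ZNF521 the log2 fold change of SMAD6 was -0.28 (SE 0.17, edgeR adjusted p = 0.961) and turned to 0.17 without CTL_DMSO, the ratio of ZNF521_SAG to CTL_SAG being 1.005 (0.891 to 1.134).

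SMAD7 had 445 in ZNF521_SAG and 415 in ZNF521_DMSO, against 437.5 in CTL_SAG and 546 in CTL_DMSO. Here again CTL_DMSO was the highest library, and the others were within a narrow range. The ZNF521 log2 fold change was -0.20 (SE 0.17, edgeR adjusted p = 0.981), and ran from -0.019 without CTL_DMSO to -0.36 without CTL_SAG (edgeR unadjusted p = 0.037). That of SAG was -0.11 (SE 0.17, edgeR adjusted p = 0.825), which turned to 0.086 without CTL_DMSO. CTL_DMSO was the highest library of SMAD6, SMAD7 and PMEPA1 and of 34.5% of all tested genes. It was the highest or the lowest library of 5 of the 9, with ID4 and SKIL lowest there, and of 71.9% of all tested genes. Of the 5 mesenchymal markers, 3 (COL1A1, COL1A2 and FN1) were also highest there, and their part in these differences was not tested.

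PMEPA1 (chr20:57648392-57711536, minus strand) encodes a membrane protein that draws SMAD2 and SMAD3 away from the TGF-beta receptor and is a strong TGF-beta target in many cells. It had 426 normalized counts in ZNF521_SAG and 401 in ZNF521_DMSO, against 549 in CTL_SAG and 722 in CTL_DMSO. Both ZNF521 libraries were below both control libraries, as in 13.0% of all tested genes. The ZNF521 log2 fold change was -0.62 (SE 0.17, edgeR unadjusted p = 0.0033, adjusted p = 0.679), with ZNF521 over control ratios of 0.776 (95% interval 0.684 to 0.880) under SAG and 0.556 (0.490 to 0.630) in solvent. PMEPA1 was the single one of the 9 genes that was at least 1.5-fold apart in the solvent pair, as were 15.4% of all tested genes. In the SAG pair 0 of the 9 were (6.21% of all tested genes). Fitted without CTL_DMSO the log2 fold change was -0.40 (edgeR unadjusted p = 0.020). The unadjusted threshold was missed when ZNF521_SAG (-0.68, edgeR unadjusted p = 0.053) or ZNF521_DMSO (-0.58, edgeR unadjusted p = 0.094) was left out, with fold changes of like size. The SAG log2 fold change of PMEPA1 was -0.16 (SE 0.17, edgeR adjusted p = 0.736) and turned to 0.27 without CTL_DMSO.

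BAMBI (chr10:28677510-28682932, plus strand) encodes a pseudoreceptor that resembles type I receptors but lacks a kinase, and so dampens signalling by BMP, activin and TGF-beta. It had 1043 in ZNF521_SAG and 1025 in ZNF521_DMSO, against 1237 in CTL_SAG and 1129 in CTL_DMSO. CTL_SAG was its highest library, as in 23.4% of all tested genes. The ZNF521 libraries were below the control libraries in both treatments, with ratios of 0.843 (95% interval 0.776 to 0.915) under SAG and 0.908 (0.833 to 0.990) in solvent. The ZNF521 log2 fold change of -0.20 did not pass the test (SE 0.15, edgeR adjusted p = 0.967), and that of SAG was 0.079 (SE 0.15, edgeR adjusted p = 0.855).

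SKIL (chr3:170357342-170396835, plus strand) encodes SnoN, a nuclear partner of SMAD2, SMAD3 and SMAD4 that represses their targets. It had 1254 in ZNF521_SAG against 1005 in ZNF521_DMSO, and 1181 in CTL_SAG against 924 in CTL_DMSO. Both SAG libraries were above both solvent libraries, as in 25.4% of all tested genes, and ZNF521_SAG was the highest, as in 21.2%. The ratio of SAG to solvent was similar in ZNF521 cells, at 1.247 (95% interval 1.150 to 1.353), and in control cells, at 1.278 (1.169 to 1.398). The SAG log2 fold change was 0.34 (SE 0.15, edgeR unadjusted p = 0.041, adjusted p = 0.420). The transcript of SKIL is poor in G and C (35.8%, at the 2.81 percentile of tested genes), and with a correction for GC content per library the log2 fold change was 0.037 (edgeR unadjusted p = 0.805). The same correction left SMAD6 lower with SAG (-0.36, unadjusted p = 0.026) and PMEPA1 lower with ZNF521 (-0.56, edgeR unadjusted p = 0.0012). For ZNF521, SKIL had a log2 fold change of 0.093 (SE 0.15, edgeR adjusted p = 0.989), which turned to -0.096 with the correction.

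**Figure D2:**
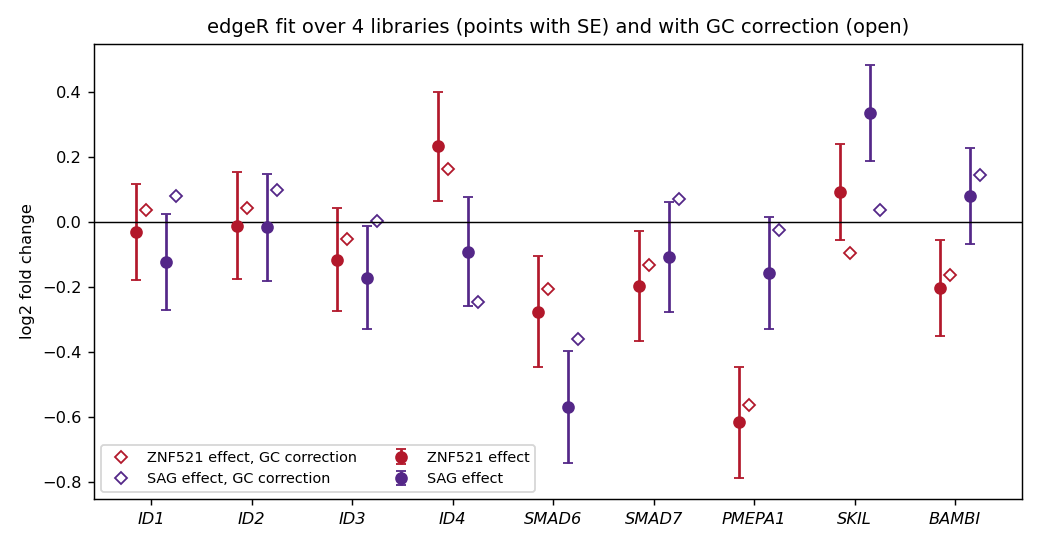
Log2 fold changes (vertical axis) of the 9 genes for ZNF521 over control and SAG over solvent, from the edgeR fit over 4 libraries with bars of 1 SE (filled) and after correction for transcript GC content (open, no bars drawn). PMEPA1 lay at -0.62 for ZNF521 and SMAD6 at -0.57 for SAG in the main fit, and the SAG effect of SKIL moved to 0.037 with the correction.

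The effect of ZNF521 could differ between treatments, and that of SAG between ZNF521 and control cells, which is a single ratio of ratios for both. In the 4 ID genes it was below 1, at 0.856 for ID1 (95% interval 0.790 to 0.929), 0.770 for ID2 (0.636 to 0.932), 0.805 for ID3 (0.760 to 0.852) and 0.769 for ID4 (0.631 to 0.936). In SMAD6, SMAD7 and PMEPA1 it was above 1, at 1.448 (1.237 to 1.697), 1.340 (1.110 to 1.617) and 1.395 (1.166 to 1.669). For SKIL (0.976, 0.864 to 1.102) and BAMBI (0.928, 0.824 to 1.046) the interval included 1. The 7 intervals that excluded 1 cover counting error only: with 1 library per condition no degree of freedom is left for this difference, and it was not tested. How many of all tested genes had such an interval was not counted, so the 7 cannot be set against a background. All 4 libraries enter each ratio of ratios. CTL_DMSO, the library that stood apart, was the highest for SMAD6, SMAD7 and PMEPA1 and the lowest for ID4. For ID1, ID2 and ID3 it was neither. Its part in these ratios was not tested.

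**Figure D3:**
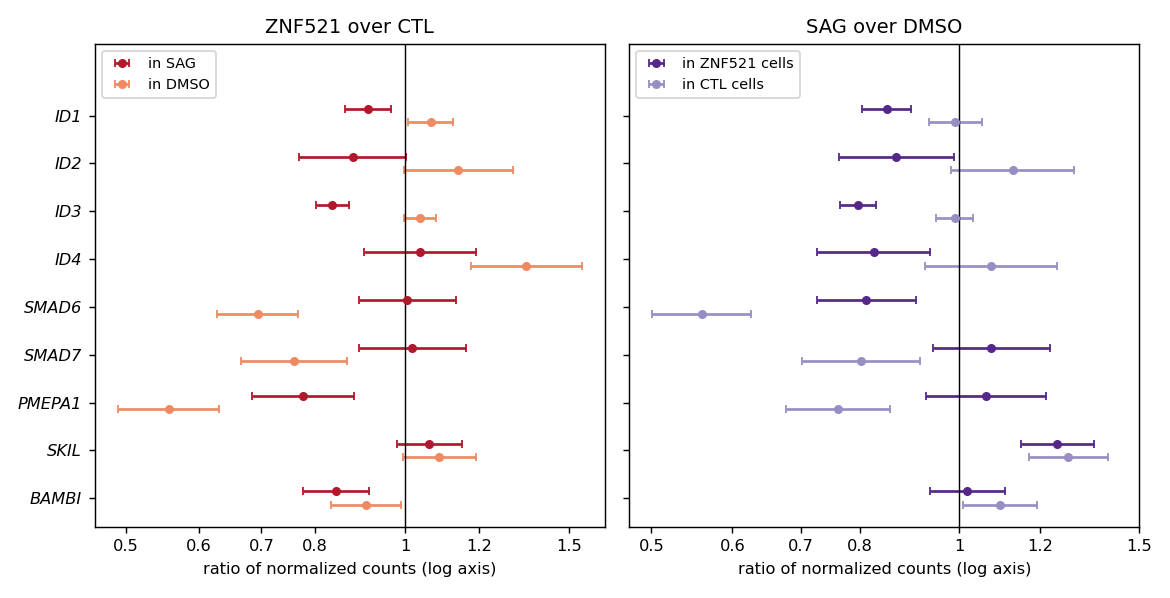
Ratios of normalized counts (horizontal log axes) for ZNF521 over CTL within each treatment (left) and SAG over DMSO within ZNF521 and within control cells (right), with exact 95% intervals for counting error. PMEPA1 and BAMBI were below 1 for ZNF521 in both treatments. SKIL was above 1 for SAG in both ZNF521 and control cells, and the ID genes were below 1 for SAG in ZNF521 cells.

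The rest of the pathway was described by 7 lists of other genes, from ligands to targets, of which 108 genes were tested. By the unadjusted edgeR p, read at 0.05, 3 were higher and 14 lower with ZNF521, and 6 were higher and 11 lower with SAG. This was 15.7% in each comparison, beside the 5.48% and 11.3% of all tested genes. The lists were chosen with earlier results of these data known, so these shares are a description and not a test of the pathway. None of the 108 passed an adjusted p of 0.05 in the main edgeR fit. With the GC correction ACVR1 passed it for ZNF521 (edgeR adjusted p = 0.024), as 1 of 8 genes among all tested. With no filter on low counts ACVR1, ENG, LTBP3, THBS1 and COL1A1 passed it for ZNF521 (edgeR adjusted p from 6.4e-06 to 0.011). In that setting 100 of 20363 genes did for ZNF521 and 223 did for SAG. Which list genes were among those for SAG is not given here. CTL_DMSO was the highest library of 48 of the 108 (44.4%), beside 34.5% of all tested genes. Of the calls among the list genes named here, 7 of 12 for ZNF521 and 7 of 14 for SAG were lost without CTL_DMSO, and 2 of 12 and 6 of 14 with the GC correction.

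Among 15 ligands, 1 was higher and 2 were lower with ZNF521 and 2 were higher and 2 lower with SAG. INHBA, the activin A subunit, had 305 normalized counts in ZNF521_SAG against 221 in ZNF521_DMSO, and 347 in CTL_SAG against 173 in CTL_DMSO, a SAG log2 fold change of 0.73 (edgeR adjusted p = 0.391). TGFB2, a TGF-beta isoform, had 936 against 603 and 1162 against 845 in the same pairs, a SAG log2 fold change of 0.55 (edgeR adjusted p = 0.391). In both genes the SAG library was above its solvent library in ZNF521 cells and in control cells. TGFB2 was also 1 of the 2 ligands lower with ZNF521 (log2 fold change -0.41, edgeR adjusted p = 0.893), and was at -0.58 without CTL_DMSO. GDF15, a divergent family member induced by stress, had 169.6 in ZNF521_SAG and 204 in ZNF521_DMSO against 105 in CTL_SAG and 135 in CTL_DMSO (ZNF521 log2 fold change 0.63, edgeR adjusted p = 0.746). GDF7, a BMP-like ligand, had a SAG log2 fold change of -0.70 (edgeR adjusted p = 0.391).

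Of 14 extracellular antagonists and latency proteins, 2 were higher and 1 lower with ZNF521, a share of 21.4% beside 5.48% of all tested genes. With SAG 0 were higher and 3 lower, a share of 21.4% beside 11.3%. The 3 lower ones were LTBP2, LTBP3 and LTBP4, of the family named latent TGF-beta binding proteins. LTBP3 had 1039 in ZNF521_SAG, 1127 in ZNF521_DMSO, 1115 in CTL_SAG and 2750.2 in CTL_DMSO, so its difference lay in the last library. Of 16 receptors, 0 were higher and 2 lower with ZNF521 (12.5%, beside 5.48% of all tested genes). With SAG 0 were higher and 1 lower (6.25%, beside 11.3%). ACVR1, a type I BMP receptor, had 926 in ZNF521_SAG and 794 in ZNF521_DMSO against 1319 in CTL_SAG and 2232 in CTL_DMSO, so both ZNF521 libraries were the lower ones (log2 fold change -1.01, edgeR adjusted p = 0.381). ENG, the co-receptor endoglin, had 496, 495, 529 and 1435 in the 4 libraries, the high one being CTL_DMSO.

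Of 18 SMADs, ligases and nuclear partners, 0 were higher and 2 lower with ZNF521 (11.1%, beside 5.48% of all tested genes). With SAG 2 were higher and 1 lower (16.7%, beside 11.3%). ZNF423, a zinc finger partner of SMAD1 and SMAD4 and the closest relative of ZNF521, had 960.1 in ZNF521_SAG and 999 in ZNF521_DMSO against 1193 in CTL_SAG and 1799 in CTL_DMSO (log2 fold change -0.59, edgeR adjusted p = 0.679). Without CTL_DMSO it was -0.28 (edgeR unadjusted p = 0.068). SKI, the relative of SKIL, had 562, 629 and 542 in ZNF521_SAG, ZNF521_DMSO and CTL_SAG and 1259.5 in CTL_DMSO, unlike SKIL, which was lowest in CTL_DMSO. SMAD5, a BMP-activated SMAD, had 1884 in ZNF521_SAG against 1594 in ZNF521_DMSO and 1803 in CTL_SAG against 1220.3 in CTL_DMSO (SAG log2 fold change 0.40, edgeR adjusted p = 0.391). SMURF2, a ligase that marks SMADs and receptors for degradation, had a SAG log2 fold change of 0.35 (edgeR adjusted p = 0.420). With the GC correction neither call was kept, at 0.13 for SMAD5 and 0.20 for SMURF2 (edgeR unadjusted p = 0.370 and 0.185).

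CTL_DMSO was the highest library of 47.4% of 19 other BMP targets, beside 34.5% of all tested genes. The median log2 fold change of the 19 was -0.15 for ZNF521 and -0.21 for SAG. In each comparison 0 were higher and 2 lower, which is 10.5% of them, beside 5.48% of all tested genes for ZNF521 and 11.3% for SAG. With SAG these were ATOH8 and GATA2, transcription factors of development (-0.41 and -0.36, edgeR adjusted p = 0.402 and 0.424), which were -0.22 and -0.13 with the GC correction and no longer called (edgeR unadjusted p = 0.145 and 0.382). With ZNF521 they were UNC5B and TBX2 (-0.34 and -0.60, edgeR adjusted p = 0.910 for both), which were -0.072 and -0.15 without CTL_DMSO and no longer called (edgeR unadjusted p = 0.628 and 0.631). Without CTL_DMSO the SAG value of ATOH8 was -0.16 (edgeR unadjusted p = 0.209). Of 22 other TGF-beta targets, 0 were higher and 4 lower with ZNF521 (median -0.23), and 1 was higher and 3 lower with SAG (median -0.039, 10 above 0 and 12 below). CTL_DMSO was the highest library of 11 of the 22. THBS1, which activates latent TGF-beta, had 1203 in ZNF521_SAG and 1045 in ZNF521_DMSO against 1547 in CTL_SAG and 2276 in CTL_DMSO (log2 fold change -0.75, edgeR adjusted p = 0.612). ACTA2, smooth muscle actin, had 532 and 437 against 734 and 693 in the same libraries (log2 fold change -0.57, edgeR adjusted p = 0.679). In both genes, as in PMEPA1, the ZNF521 libraries were both below the controls. COL1A1, a collagen chain that is also one of the mesenchymal markers, had 5316, 5241 and 4913 in ZNF521_SAG, ZNF521_DMSO and CTL_SAG and 15912 in CTL_DMSO. Of the 10 bHLH and ETS factors bound by ID proteins that were tested, 0 were higher and 1 lower with ZNF521, and 1, ETS1, was higher with SAG (log2 fold change 0.34, edgeR adjusted p = 0.415), which was 0.23 and no longer called with the GC correction (edgeR unadjusted p = 0.128).

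**Figure D4:**
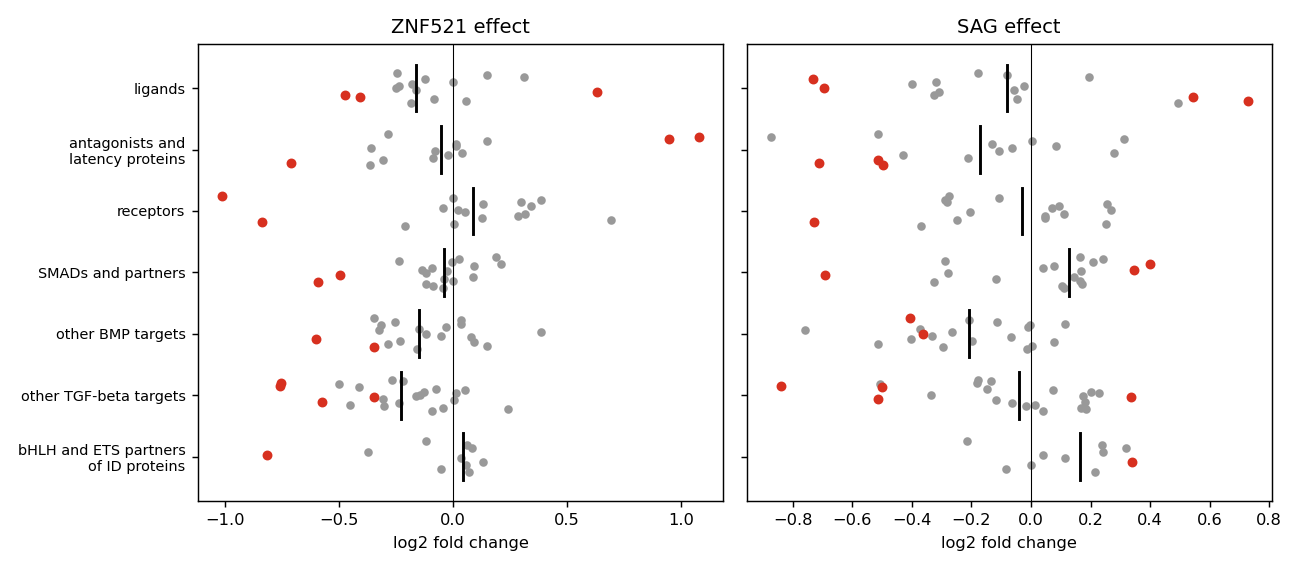
Log2 fold changes (horizontal axes) of the tested genes of the 7 pathway lists for ZNF521 over control (left) and SAG over solvent (right), each point a gene, red where the edgeR unadjusted p was at most 0.05, with the list's median as a vertical bar. The TGF-beta targets had a median of -0.23 for ZNF521, and no list gene passed an adjusted p of 0.05 in this main edgeR fit.

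PMEPA1 and SMAD6, the 2 genes of widest range, were compared with 9160 other genes averaging at least 200 normalized counts by the Euclidean distance between centred log2 profiles over the 4 libraries. The profiles closest to PMEPA1 were those of JPH3 (distance 0.072), HTR7 (0.075) and KIF26B (0.080), and 24 genes lay within 0.2. Those closest to SMAD6 were UCP2 (0.029), SLC22A23 (0.055) and ADGRL1 (0.056), and 123 genes lay within 0.2. UCP2 had 327 normalized counts in ZNF521_SAG, 397 in ZNF521_DMSO, 316 in CTL_SAG and 572 in CTL_DMSO, so its libraries stood in the same order as those of SMAD6.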

How the data were processed

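RNA of 4 DAOY cultures, 1 library per condition, was measured by strand-specific ribosomal RNA-depleted sequencing on HiSeq2000. Per the authors' processing notes, STAR 2.7.0e was used both for alignment to hg38 and for gene-level counting; the annotation, strand setting and read filters are not given in the sources used here. Raw counts were deposited by the authors as whole numbers for 20363 genes. The deposited normalized signal values are these counts, which the authors divided by 1 DESeq2 median-of-ratios size factor per library (0.887 to 1.19); 503 genes with 1 read in all are absent there. Totals of 12294833 to 16314685 reads set the counting precision.

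Groups were taken from sample titles. Testing was limited to the 14970 genes that reached 10 counts in 2 or more libraries and was done with edgeR 4.0.16 (R 4.3.3, TMM, quasi-likelihood F-test, terms for ZNF521 and SAG, 1 residual degree of freedom) and Benjamini-Hochberg adjustment. The spread is thus moderated over genes and rests on whether effects add up, not on replicate cultures, and p-values measure only that. Unadjusted p-values were read at 0.05. Pair ratios used the authors' size factors with exact Clopper-Pearson 95% intervals, and ratios of ratios used exact conditional intervals. Alternatives were RLE factors, library size, other count filters, DESeq2 1.42.0, limma 3.58.1, correction by transcript GC content, no term for the other factor and leaving out each library. Symbols were matched to GENCODE for positions, exon lengths and GC (98.7% matched), and promoter windows came from RefSeq. The 9 genes and the gene lists were chosen with earlier results of these data known. Besides the 9 genes, list members past the unadjusted threshold that averaged 50 or more normalized counts were named, at most 4 a list by smallest p, with the 3 nearest profiles of the 2 genes of widest range, and ZNF521 and GLI1 as label checks. Of the listed genes, 6 had no row by that symbol and were not analysed here.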

Additional observations from a re-analysis of the deposited data

Results flagged for a closer look

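In 7 of the 9 genes the effect of ZNF521 ran in opposite directions with SAG and with solvent, or the effect of SAG ran in opposite directions in ZNF521 and in control cells, as did 62.6% of all tested genes. The ZNF521 effect was opposite in 5 of the 9 (49.9% of all tested genes) and the SAG effect in 4 (38.3%). The value given is the difference of the log2 ratios, and with 1 library per condition this difference was not tested. For ZNF521, with SAG minus with solvent, it was -0.22 for ID1, -0.38 for ID2, -0.31 for ID3, 0.53 for SMAD6 and 0.42 for SMAD7. ID1, ID2 and ID3 were below the control with SAG and above it with solvent, whereas SMAD6 and SMAD7 were about level with SAG and lower with solvent. For SAG, in ZNF521 minus in control cells, it was -0.38 for ID2, -0.38 for ID4, 0.42 for SMAD7 and 0.48 for PMEPA1. Of these 9 flips, ID1 under ZNF521 was the single one in which both ratios had a counting interval that excluded 1, and this held with the authors' size factors but not with TMM factors or library size, with which the interval of ZNF521_DMSO over CTL_DMSO included 1. Among the others were ratios close to 1, such as 1.005 for SMAD6 and 1.018 for SMAD7 with SAG.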

How the results depend on the processing

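Each of the 3 calls at an unadjusted p of 0.05 was lost under some alternative. The ZNF521 call of PMEPA1 was lost without either ZNF521 library, the SAG call of SMAD6 without ZNF521_SAG (unadjusted p = 0.056). The SAG call of SKIL was lost with library size alone (log2 fold change 0.32, unadjusted p = 0.051), a mean count of at least 50 (0.31, unadjusted p = 0.053), DESeq2 (0.33, unadjusted p = 0.115), the GC correction (0.037, unadjusted p = 0.805) and without ZNF521_SAG or CTL_SAG. With each of library size alone, the stricter count filter, DESeq2 and the GC correction, 1 of the 9 genes was thus called for SAG. Over the 9 genes and both comparisons, 179 of the alternative fold changes kept direction and side of the threshold, 21 turned, 7 passed the threshold anew and 9 fell short of it. The GC correction turned the ZNF521 log2 fold changes of ID1 (0.036), ID2 (0.041) and SKIL (-0.096) and the SAG log2 fold changes of ID1 (0.079), ID2 (0.097), ID3 (0.0016) and SMAD7 (0.071). The cause was not tested. No pair ratio of the 9 genes changed direction with TMM factors or library size. The interval of ID1 for ZNF521_DMSO over CTL_DMSO came to include 1 with both (0.992 to 1.11 and 0.991 to 1.11), and that of BAMBI for CTL_SAG over CTL_DMSO with library size (0.984 to 1.16).

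Among all tested genes, the numbers past an adjusted p of 0.05 (1 for ZNF521, 6 for SAG) were 100 and 223 with no filter on low counts, 8 and 15 with the GC correction, and 0 for SAG without a term for ZNF521. The numbers at an unadjusted p of 0.05 (820 for ZNF521, 1697 for SAG) were 167 and 424 with DESeq2, 1259 for ZNF521 with no filter, 444 for ZNF521 without a term for SAG, and 791 for SAG with the GC correction.

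When a library was left out, 3 libraries remained, the tested factor was the only term, and the lone library of a condition was assumed to vary like the pair. The number past an adjusted p then ran from 0 to 2340 for ZNF521, the highest without CTL_SAG, and from 0 to 4513 for SAG, the highest without ZNF521_DMSO. The number at an unadjusted p ran from 120 to 4141 and from 305 to 6061, and that among the 9 genes from 0 to 3 and from 0 to 5. At an adjusted p, 2 of the 9 were called for ZNF521 without CTL_SAG and 4 for SAG without ZNF521_DMSO. The ZNF521 log2 fold change ran from -0.14 to 0.080 for ID1, -0.11 to 0.083 for ID2, -0.27 to 0.042 for ID3, -0.69 to 0.17 for SMAD6, -0.082 to 0.28 for SKIL, -1.10 to 0.14 for SKI and -1.61 to 0.11 for COL1A1. That of SAG ran from -0.12 to 0.074 for ID2, -0.31 to 0.12 for ID4, -0.32 to 0.086 for SMAD7, -0.59 to 0.27 for PMEPA1, -0.047 to 0.20 for BAMBI and -1.499 to 0.042 for ENG. The 2 pairs of each comparison share a treatment or the kind of cells (ZNF521 or control), which is the block of the additive model. The values without that term are those given above. There were no replicate numbers by which to pair libraries. Depth limited the pair ratios of ID2, ID4, SMAD7 and PMEPA1 most, the genes with the fewest reads.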
